A study of Mus musculus with 24 samples.

Results

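The genes described here are 6 transcription factor genes that are used to recognise Cajal-Retzius (CR) neurons: Trp73, Lhx1, Lhx5, Ebf1, Ebf2 and Ebf3. They were taken by name, and all 6 are rows of a single-nucleus RNA sequencing (snRNA-seq) count table of 33902 gene symbols made from ventral hippocampus, taken from adult males. The mice, 10 to 16 weeks old, were of the inbred strains C57BL/6J (B6), the source of the mouse reference genome, and DBA/2J (DBA). No allele, drug or other treatment separates the groups, so strain is the only contrast by design. Reads of the 2 strains were aligned to different references, so strain and reference cannot be told apart. Each strain gave 2 snRNA-seq libraries and 2 libraries of single-nucleus accessibility (snATAC-seq), each from about 2 pooled animals, and a NeuN sort, which separates the nuclei of neurons from others, set the mix of neurons and other cells before snRNA-seq. The count table sums nuclei into 17 cell types per library, among them a cluster named CR, 11 further neuronal types and 5 non-neuronal types. The main question was whether Trp73 outside the CR cluster differs between the strains.

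CR neurons are born early, lie at the surface of the developing cortex and hippocampus, and secrete reelin, the product of Reln, which guides later-born neurons into layers. Many of them die after birth, but the hippocampus keeps some into adulthood. Trp73 encodes p73, a relative of the tumour suppressor p53 that CR neurons need for their survival. Its outer and inner promoters give proteins with and without an N-terminal activation domain. Lhx1 and Lhx5 encode closely related LIM-homeodomain factors, and Ebf1, Ebf2 and Ebf3 encode early B-cell factors, which act in neuronal migration and also in B cells, fat and vessel-associated cells.

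In the GENCODE vM21 annotation of GRCm38, Trp73 lies at chr4:154056253-154140208 on the minus strand, Lhx1 at chr11:84518284-84525535 on the minus strand and Lhx5 at chr5:120431699-120441223 on the plus strand. Ebf1 lies at chr11:44617317-45008091 (plus), Ebf2 at chr14:67233292-67430918 (plus) and Ebf3 at chr7:137193673-137314445 (minus). All 6 are protein-coding, and introns were counted. The genes that overlap them in this annotation lie on the opposite strand. Trp73os, which is antisense to Trp73, had 10 counts in B6 and 2 in DBA, few beside the 447 and 441 of Trp73. Gm10578, antisense within Ebf3, had 37 and 3, and Gm27199, antisense at the start of Lhx5, had 51 and 9. Whether counting used strand is not given in the sources used here, so reads of Ebf3 or Lhx5 and of these partners may not be told apart.

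The 2 promoters of Trp73 are shown because Trp73 carried the main strain difference. They are the RefSeq (GRCm38.p6) sequences from 250 bases before to 50 after a start, written 5′ to 3′ on the minus strand, with each CpG dinucleotide in capitals. The outer lies at chr4:154139826-154140125 and the inner at chr4:154097124-154097423, within the gene.
Trp73 outer promoter: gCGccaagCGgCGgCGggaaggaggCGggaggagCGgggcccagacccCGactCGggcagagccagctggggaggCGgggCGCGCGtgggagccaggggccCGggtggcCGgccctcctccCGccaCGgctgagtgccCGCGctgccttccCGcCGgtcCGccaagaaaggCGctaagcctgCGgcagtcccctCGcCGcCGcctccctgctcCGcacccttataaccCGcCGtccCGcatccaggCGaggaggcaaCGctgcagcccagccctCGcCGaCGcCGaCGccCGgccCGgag
Trp73 inner promoter: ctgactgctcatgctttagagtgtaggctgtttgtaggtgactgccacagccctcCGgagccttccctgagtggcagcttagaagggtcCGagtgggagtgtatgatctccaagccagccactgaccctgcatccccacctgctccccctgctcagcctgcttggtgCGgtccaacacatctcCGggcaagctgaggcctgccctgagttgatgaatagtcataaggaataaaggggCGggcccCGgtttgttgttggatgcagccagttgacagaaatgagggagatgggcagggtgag
The outer promoter holds 39 CpG and 77.7% G or C, and overlaps an snATAC-seq peak. The inner promoter holds 6 CpG and 57.7% G or C, and overlaps no peak of the table. RefSeq promoters were matched for 4 of the 6 genes, in 6 entries (Trp73, Lhx1, Ebf1 and Ebf3). None of the 6 held the EBF consensus motif, the LIM-homeodomain motif TAATTA or the p53 half-site consensus, each of which reads the same on both strands. Of 32851 mouse promoters of this length, 0.904%, 5.29% and 8.36% held them.

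The CR cluster was small, and it differed between the strains in size and content. It held 171 and 138 nuclei in B6 library 2 and B6 library 3 but 45 and 46 in DBA library 2 and DBA library 3, and pairs of values are given in this order of libraries throughout. Its counts were 479789 and 482936 in B6 and 139713 and 162378 in DBA. Reln, which defines CR neurons, was at 4298 and 4806 CPM (counts scaled to the total of the same cell type and library) in B6 and at 2784 and 1226 in DBA. The 9 CR markers, which include Trp73, Lhx1 and Lhx5, summed to between 6724 and 7415 CPM in B6 and between 1965 and 4667 in DBA, lowest in DBA library 3, where Lhx5 was at 0. Markers of dentate granule cells (3 genes) summed to between 201 and 252 CPM in the B6 cluster and between 351 and 597 in the DBA cluster. Prox1 carried that sum (242 and 184 in B6, 344 and 591 in DBA), while C1ql2 was between 4.14 and 7.16 in all libraries and Dsp was at 4.17 and 12.4 in B6 and at 0 in DBA. Those of astrocytes (3 genes) summed to between 350 and 377 in B6 and between 505 and 651 in DBA, carried by Slc1a2, while Aqp4 was at 12.5 and 24.8 in B6 and 7.16 and 12.3 in DBA. Those of oligodendrocytes (3 genes) summed to 236 to 321 in B6 and 100.2 to 129 in DBA, while Mog among them was at 12.5 and 14.5 in B6 and 21.5 and 18.5 in DBA. The part of these markers in the values from the CR cluster was not tested.

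Across cell types, Trp73, Lhx1, Lhx5 and Ebf3 had their highest mean level in CR in both strains, and Ebf1 and Ebf2 in VLMC, a cluster with high fibroblast and mural markers. Because the clusters were defined on the same nuclei, these levels are a description. Lhx1 was nearly confined to CR, with 93.4% of its B6 counts and 97.9% of its DBA counts there. Trp73 had 83.4% of its 447 B6 counts in CR but 9.52% of its 441 DBA counts. Over all cell types together Trp73 averaged 4.05 ± 0.0162 CPM in B6 against 4.64 ± 0.105 CPM in DBA (SD, n = 2 libraries each), so the strains differed far more in where its counts lay than in their number. The CR share also depends on how many CR nuclei were sampled, which were 171 and 138 in B6 and 45 and 46 in DBA.

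**Figure D1:**
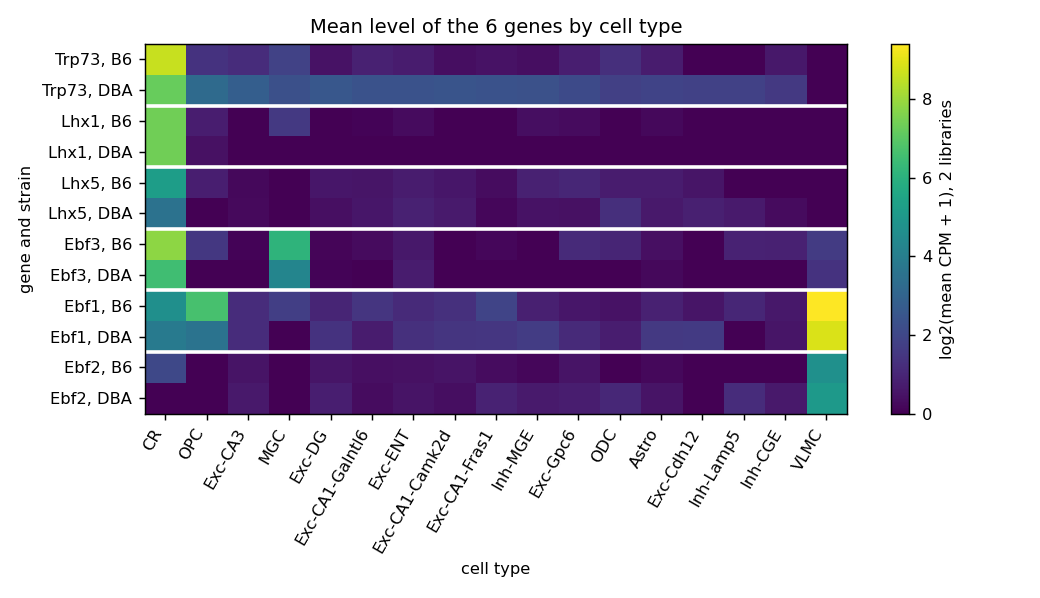
Mean level of the 6 genes in each of 17 cell types (columns), as log2(mean CPM + 1) over 2 libraries, with B6 above DBA for each gene (rows, colour scale at right). Trp73 is bright in CR in both strains and higher in the mean in the other DBA columns except VLMC, Ebf1 and Ebf2 peak in VLMC, and Ebf3 has a second high column in MGC.

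Outside the CR cluster Trp73 was 6.05-fold higher in DBA. Summed over the 16 other cell types, B6 had 38 and 36 Trp73 counts per library, and DBA had 206 and 193. That is 0.709 and 0.643 CPM in B6 against 3.96 and 4.50 CPM in DBA, and per 1000 nuclei 4.45 and 4.66 counts against 25.9 and 30.8. Both DBA libraries lay above both B6 libraries, with no overlap. The log2 fold change (DBA minus B6) was 2.60 with a standard error of 0.20 (adjusted p = 1.92e-08, edgeR quasi-likelihood test over 25695 genes). The strains differ at many genes in this sum: 47.0% of the genes tested were called in either direction at adjusted p under 0.05, and 4247 of those tested had counts in only 1 strain. Of these 4247, 4085 were called higher in DBA and 162 lower, and 8206 symbols had counts outside CR in DBA only against 960 in B6 only. This imbalance runs in the same direction as the difference of Trp73, and its part in that difference was not tested. Of the 21448 tested genes with counts in both strains, as all 6 genes here have, 18.0% were called higher in DBA, and 0.732% had a log2 fold change at least as large as that of Trp73.

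The difference was spread over neuronal types, and OPC and Astro had the same direction on few counts. Both DBA libraries exceeded both B6 libraries in CPM in 13 of the 16 types outside CR. Among 18913 genes with at least 100 counts outside CR and counts in both strains, 2.84% did so in as many types or more, and the median gene in 3. The exceptions were MGC (2 and 1 counts in B6, 2 and 2 in DBA), ODC (4 and 2 in B6, 4 and 3 in DBA) and VLMC, which had no Trp73 count in any library. For VLMC, 0 counts over both libraries of a strain allow up to 3 counts, or 4.25 CPM in B6 and 3.31 CPM in DBA, with counting error only. The DBA limit lies below the DBA means of Exc-CA3 (6.01 CPM) and OPC (8.58 CPM), and the B6 limit lies above the B6 levels of the other types outside CR. As nuclei were summed, many nuclei with few counts and few nuclei with many cannot be told apart.

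**Figure D2:**
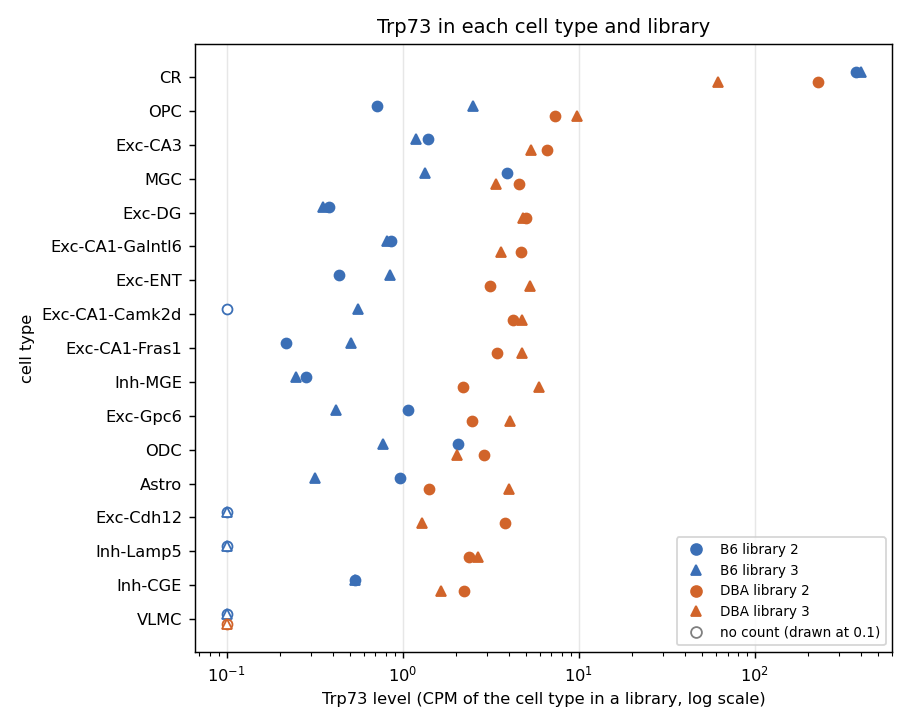
Trp73 level in CPM on a log axis for each cell type (rows, ordered by mean level) and library (blue for B6, orange for DBA, circles for library 2 and triangles for library 3), with open symbols at 0.1 for libraries without a count. In CR the B6 libraries (375 and 400 CPM) lie above the DBA libraries (229 and 61.6), and in 13 other types both orange points lie right of both blue ones.

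Of 102 combinations of gene and cell type, 17 passed the filter on low counts and 11 of these were called. Trp73 passed it in 7 types outside CR and was called higher in DBA in all 7. The filter keeps a type where counts are high in either strain, so this count leaves out 9 types with few counts. In all 7 the B6 counts alone were too few to pass, so each type entered through its DBA libraries. That all 7 share a direction is thus no separate support for the difference. In Exc-DG, the excitatory neurons of the dentate gyrus, it had 4 and 4 counts (0.383 and 0.352 CPM) in B6 and 45 and 38 (4.996 and 4.81 CPM) in DBA. All DBA values there were far above all B6 values, and the log2 fold change was 3.67 (standard error 0.37, adjusted p = 1.78e-06, edgeR, where 36.0% of 17723 genes were called). In Exc-CA3 it had 10 and 7 counts in B6 and 37 and 23 in DBA (log2 fold change 2.18, standard error 0.36, adjusted p = 0.000112, 32.1% of genes called). Exc-CA3 was the highest of the neuronal types outside CR in both strains.

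The 3 types named for CA1 showed the same direction. Exc-CA1-Galntl6 had 7 and 6 counts in B6 and 33 and 21 in DBA (log2 fold change 2.28, standard error 0.38, adjusted p = 0.00016, edgeR, 35.0% of genes called). Exc-CA1-Fras1 had 1 and 2 counts in B6 and 14 and 15 in DBA, a ratio of pooled CPM of 11.4 with an exact 95% counting interval from 3.54 to 58.5 (adjusted p = 6.82e-05, edgeR, 28.5% of genes called). Exc-CA1-Camk2d had 0 and 2 counts in B6 and 17 and 16 in DBA, a ratio of 13.9 with an interval from 3.56 to 120 (adjusted p = 0.00139, edgeR, 19.4% of genes called). These intervals cover counting error only, and they are wide where the B6 counts are few.

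Exc-ENT had 2 and 4 Trp73 counts in B6 and 13 and 17 in DBA (log2 fold change 2.56, standard error 0.53, adjusted p = 0.000184, edgeR, 28.0% of genes called). OPC, a cluster whose precursor markers summed to between 2100 and 2267 CPM in every library, had 1 and 4 counts in B6 and 9 and 14 in DBA (log2 fold change 2.33, standard error 0.59, adjusted p = 0.00129, edgeR, 16.2% of genes called). OPC was thereby the highest DBA type after CR, at 8.58 ± 1.75 CPM (SD, n = 2), and its range lay apart from that of Exc-CA3 below it (6.01 ± 0.876 CPM). With DESeq2 the call held in 4 of these 7 types and was lost in Exc-CA1-Camk2d (adjusted p = 0.0594), Exc-ENT (0.0719) and OPC (0.324). Leaving out DBA library 3 also left 4 calls, ending those of Exc-CA1-Camk2d and Exc-ENT (adjusted p = 0.129 and 0.0828, edgeR), while OPC no longer passed the filter. Without DBA library 2 the call was lost in Exc-CA1-Camk2d (adjusted p = 0.0637, edgeR) and OPC (0.0616), and without B6 library 2 in OPC (0.185).

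Among the types below the filter, Inh-MGE, an inhibitory type, had 1 and 1 counts in B6 and 9 and 17 in DBA, a ratio of 14.2 with an interval from 3.54 to 123. Astro had 3 and 1 counts in B6 and 5 and 15 in DBA (ratio 4.29, interval 1.44 to 17.3), and Exc-Gpc6 had 2 and 1 in B6 and 6 and 6 in DBA (ratio 4.37, interval 1.18 to 24.1). The interval for Inh-CGE, at 1 and 1 against 5 and 3 counts, ran from 0.732 to 35.5 and so included no difference. Exc-Cdh12 and Inh-Lamp5 had no B6 count. Set against 3 counts over both B6 libraries, the DBA level was 1.55-fold higher in Exc-Cdh12 (5 and 1 counts). In Inh-Lamp5 (2 and 2 counts) it was 1.80-fold higher. These values take the DBA counts as exact, so they are not lower limits of the difference. Summed over neuronal types alone the log2 fold change was 2.80 (standard error 0.19, adjusted p = 1.46e-07, edgeR), and over non-neuronal types alone, a split added after the data were seen, it was 1.71 (standard error 0.40, adjusted p = 0.00558, edgeR).

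Of 8 CR genes besides the 6, only Cxcr4, a chemokine receptor, was called in the sum without CR (log2 fold change 0.86, standard error 0.32, adjusted p = 0.039, edgeR). Of all genes tested there, 47.0% were called in either direction, and of those with counts in both strains 18.0% were called higher in DBA. The median of the 8 was 0.07, beside 0.09 over all genes tested. In B6 the share of their counts outside CR ran from 26.1% (Nhlh2) to 94.8% (Tbr1), so most are not particular to CR. Reln, which interneurons also express, stood at 0.05 (standard error 0.07), and Ndnf at 0.10 (standard error 0.10). Per 100 counts of Reln, a measure chosen after the values were seen, Trp73 in the CR cluster had 8.73 and 8.32 counts in B6 and 8.23 and 5.03 in DBA, and outside CR 0.968 and 0.913 in B6 and 5.12 and 5.96 in DBA. Lhx1 outside CR had 9 and 2 counts in B6 and 0 and 1 in DBA, too few to pass the filter. CR nuclei were 1.964% and 1.76% of B6 nuclei and 0.562% and 0.729% of DBA nuclei. The source of the Trp73 counts outside CR was not tested.

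Of 14 annotated genes within 100 kb of Trp73 on chromosome 4, 9 were tested in the sum without CR. Of the 9, 1 was called higher in DBA and 1 lower, beside 47.0% of all genes called in either direction. Among genes with counts in both strains, 18.0% were called higher in DBA. Wrap73, whose start lies next to the outer Trp73 start on the other strand, had 2050 counts in B6 and 1787 in DBA over all types, with a log2 fold change of -0.01 (standard error 0.10). Dffb was higher in DBA (0.40, standard error 0.09, adjusted p = 0.00174, edgeR). Megf6, chosen for mention after its values were seen, was lower in DBA, with 345 counts in B6 and 45 in DBA over all types (log2 fold change -2.76, standard error 0.22, adjusted p = 4.07e-08, edgeR).

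In the CR cluster itself Trp73 was lower in DBA. It had 180 and 193 counts in B6 and 32 and 10 in DBA, which is 375 and 400 CPM against 229 and 61.6 CPM, or 1053 and 1399 counts per 1000 nuclei against 711 and 217. The DBA libraries did not overlap the B6 libraries, but they lay far apart from each other, with DBA library 3 the lower. The log2 fold change was -1.48 (standard error 0.36, adjusted p = 0.0214, edgeR), with 4.26% of the 6661 genes tested called in either direction. The call was lost without DBA library 3 (log2 fold change -0.77, adjusted p = 0.2, edgeR), with DESeq2 (-1.50, adjusted p = 0.138) and without the filter on low counts (-1.60, adjusted p = 0.422, edgeR). Reln stood at -1.20 in the same fit (standard error 0.36, adjusted p = 0.0761, edgeR).

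The strain difference of Trp73 in CR was tested directly against that in the sum of the other types. The difference of the 2 log2 fold changes was -4.20 (standard error 0.34, adjusted p = 2.87e-30, edgeR with library as a block). This fit takes a shared spread for the CR columns and the far deeper sums. Fitted apart, the standard errors were 0.36 in CR and 0.20 outside it. In CR the DBA libraries lay far apart, at 229 and 61.6 CPM, which the shared spread may understate. Of 22976 genes tested for this difference of differences, 0.400% were called in either direction. No other of the 6 was called, with values of 2.68 (standard error 1.43) for Lhx1, 0.56 (0.59) for Ebf3, -0.55 (0.91) for Ebf1 and -1.77 (1.38) for Lhx5. Ebf2 had no DBA count in CR, so no fold is given. Without each library in turn the value for Trp73 lay between -5.44 and -3.42 and stayed past the threshold.

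**Figure D3:**
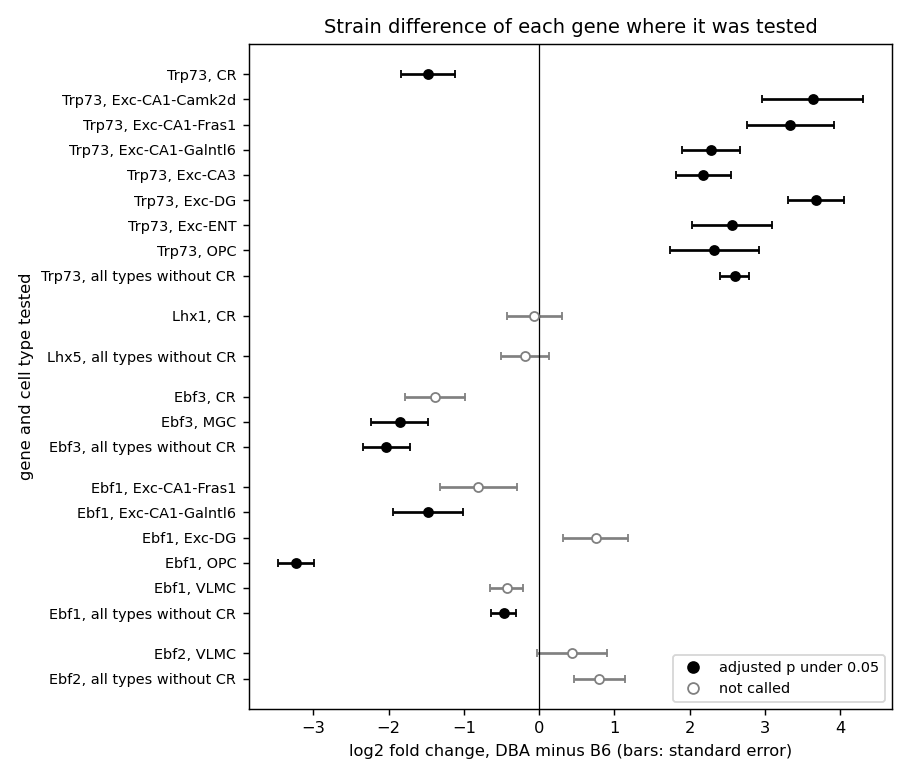
Log2 fold change (DBA minus B6) with its standard error for each gene in each cell type where it passed the filter on low counts, and in the sum of all types without CR. Filled points were called at adjusted p under 0.05 (edgeR). Trp73 lies right of 0 at every point but CR, and Ebf3 and Ebf1 in OPC lie left of 0.

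Lhx1 in CR did not differ detectably between the strains. It had 83 and 73 counts in B6 and 35 and 12 in DBA, which is 173 and 151 CPM against 251 and 73.9 CPM. The DBA libraries lay on either side of the B6 libraries, so the groups overlapped. The log2 fold change was -0.06 (standard error 0.36, adjusted p = 0.96, edgeR), and without DBA library 3 it turned to 0.62 (adjusted p = 0.399). Outside CR, Lhx1 had 11 counts in B6 and 1 in DBA and did not pass the filter.

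Lhx5 had few counts in CR and an even, low level elsewhere. In CR it had 23 and 12 counts in B6 (47.9 and 24.8 CPM) and 3 and 0 in DBA (21.5 and 0 CPM), too few to pass the filter in the fit of CR. The pooled ratio of DBA to B6 was 0.273 with an exact 95% counting interval from 0.0538 to 0.867. Outside CR its counts were thin and even, at 28 and 23 in B6 and 24 and 16 in DBA (log2 fold change -0.19, standard error 0.32, adjusted p = 0.665, edgeR). Neuronal types other than CR held 48.8% of the B6 counts of Lhx5 and 74.4% of the DBA counts.

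Ebf3 had a second site of high level besides CR, in MGC, a cluster whose microglial markers (3 genes) summed to between 3266 and 3789 CPM. In CR it was at 181 and 267 CPM in B6 (87 and 129 counts) and at 143 and 37.0 CPM in DBA (20 and 6 counts). Its log2 fold change in CR, -1.39 (standard error 0.40), missed the threshold at adjusted p = 0.0595 (edgeR). It was -1.67 without B6 library 2 and -2.65 without DBA library 2, where DBA rests on the 6 counts of library 3. The DBA libraries lay far apart, and without library 3 the DBA level is the 143 CPM of library 2, nearer to B6.

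In MGC, Ebf3 had 39 and 44 counts in B6 (75.8 and 59.1 CPM) and 11 and 7 in DBA (25.0 and 11.8 CPM). The B6 libraries lay above the DBA libraries without overlap, 3.61-fold in the fit (log2 fold change -1.85, standard error 0.38, adjusted p = 0.00323, edgeR), where 10.4% of 9008 genes were called. With DESeq2 the call was lost (adjusted p = 0.16). CR markers in MGC also summed higher in B6, between 44.3 and 93.3 CPM, than in DBA, between 20.2 and 27.3, with 2 to 5 of the 9 at 0 in a library. Astrocyte markers there were also higher in B6 (237 to 293 CPM against 150.0 to 207), fibroblast markers were higher in DBA (20.2 to 54.4 against 64.1 to 68.3), and the part of these lists in the Ebf3 values was not tested. In B6, MGC held 83 counts of Ebf3, 3 of Trp73 and 2 of Lhx1, and the CR cluster held 216, 373 and 156. The source of the Ebf3 counts in MGC was not tested. Over all types without CR, Ebf3 had 49 and 71 counts in B6 and 16 and 10 in DBA and was called lower in DBA (log2 fold change -2.03, standard error 0.31, adjusted p = 5.75e-05, edgeR), the opposite direction to Trp73.

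The strain difference of Ebf1, an early B-cell factor also found in vessel-associated cells, was largest in OPC among the types tested. There it had 156 and 144 counts in B6 (112 and 90.1 CPM) and 17 and 11 in DBA (13.9 and 7.72 CPM). The B6 libraries were 9.37-fold higher in the fit and far from the DBA libraries (log2 fold change -3.23, standard error 0.24, adjusted p = 4.73e-26, edgeR). Endothelial markers (3 genes) in OPC summed to between 1.44 and 3.75 CPM in B6 and between 2.81 and 6.53 in DBA, and mural markers (4 genes) to between 0.719 and 4.38 and between 3.51 and 13.9. Fibroblast markers (5 genes) summed to between 12.2 and 23.8 CPM in B6 and between 21.7 and 29.4 in DBA, and the part of these lists in the Ebf1 values was not tested. The call in OPC held under each alternative run.

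VLMC held the largest share of Ebf1 counts, 49.8% in B6 and 72.6% in DBA. Its levels there were 751 and 593 CPM in B6 and 467 and 462 CPM in DBA, without overlap, and the log2 fold change was -0.43 (standard error 0.22, adjusted p = 0.295, edgeR), where 7.87% of 7840 genes were called. Endothelial markers in VLMC moved the same way, from between 633 and 698 CPM in B6 to between 310 and 388 in DBA, as did mural markers, at 930.1 to 978 in B6 and 597 to 741 in DBA. Fibroblast markers moved the other way, from between 1176 and 1302 CPM in B6 to between 1372 and 1739 in DBA, and the part of these lists in the Ebf1 values was not tested. Of the neuronal types, Ebf1 was called only in Exc-CA1-Galntl6, lower in DBA (14 and 13 counts against 4 and 4, log2 fold change -1.48, standard error 0.46, adjusted p = 0.0199, edgeR). That call was lost with DESeq2 (adjusted p = 0.389) and without any 1 of the 4 libraries (adjusted p from 0.111 to 0.234). In the sum without CR, Ebf1 was lower in DBA (log2 fold change -0.47, standard error 0.17, adjusted p = 0.0319, edgeR). With VLMC also left out the value was -1.32 (adjusted p = 3.08e-05), in neuronal types alone it was 0.02 (adjusted p = 0.943), and without DBA library 3 it was -0.21 (adjusted p = 0.359).

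Ebf2, a regulator of brown fat, had 55 counts in B6 and 81 in DBA, and its level was highest in VLMC at 17.8 and 33.3 CPM in B6 and 43.8 and 22.5 CPM in DBA. The strains overlapped there (log2 fold change 0.44, standard error 0.46, adjusted p = 0.726, edgeR). In CR it had 2 and 1 counts in B6 and none in DBA, where 3 counts over both libraries would be 9.93 CPM. In the sum without CR it had 16 and 36 counts in B6 and 51 and 30 in DBA (log2 fold change 0.80, standard error 0.34, adjusted p = 0.0666, edgeR), and without B6 library 3 the value rose to 1.45 (adjusted p = 0.00214).

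**Figure D4:**
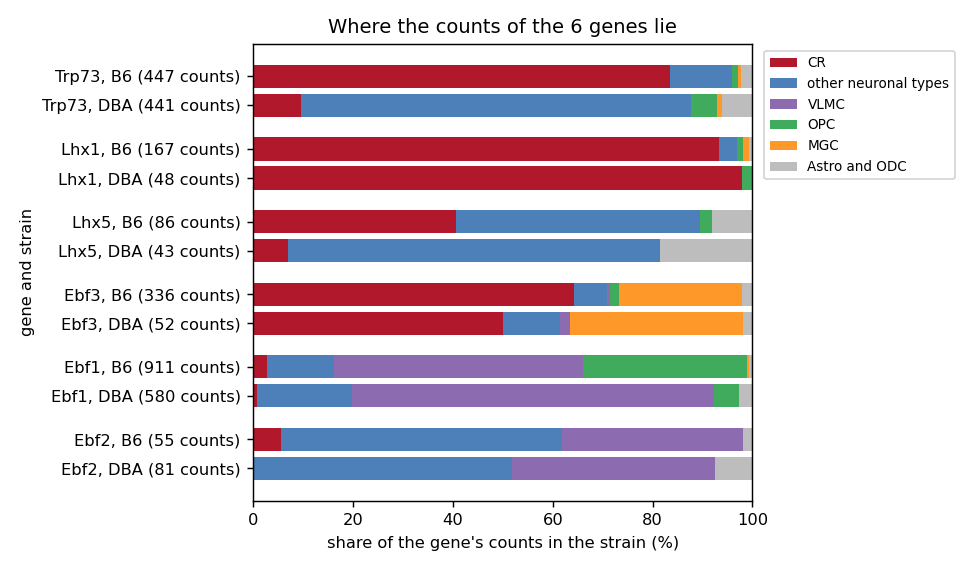
Share of each gene's counts in a strain (x axis, percent) by cell type group (colours), with the number of counts beside each gene and strain. Shares also depend on how many nuclei of each group were sampled. The CR share of Trp73 is 83.4% in B6 and 9.52% in DBA, while that of Lhx1 is above 90% in both strains, and OPC holds 32.9% of the B6 counts of Ebf1 and 4.83% of the DBA counts.

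Below the leading types the order of cell types was mostly not resolved. Of 16 pairs of neighbours in the order of mean levels, the ranges of the 2 libraries lay apart in 4 for Trp73 in B6 and 5 in DBA, and in 1 to 4 for each of the other genes and strains. For Trp73 in B6, CR (387 ± 17.3 CPM, SD, n = 2) lay apart from MGC (2.62 ± 1.80), which overlapped OPC and ODC. For Trp73 in DBA, CR (145 ± 118), OPC, Exc-CA3, Exc-DG (4.90 ± 0.130) and Exc-CA1-Camk2d (4.49 ± 0.385) lay apart in that order. Lhx5 in DBA was the exception at the top, since its CR range reached 0 and overlapped that of ODC.

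The genes closest to each of the 6 in pattern over the 17 cell types were found by Pearson correlation of mean log2(CPM + 1) among 18950 genes, as a description. Trp73 was closest to Nhlh2 (r = 0.965), Lhx1 (0.963) and Mab21l3 (0.956), and Lhx1 to its antisense transcript Lhx1os (0.996), Nhlh2 (0.987) and Mab21l3 (0.981). Lhx5 was closest to Gm49027, Aldh1b1 and Lhx1os (0.956 to 0.938). Ebf3 was closest to Zc3h18 (0.941), BC055324 and Gm36043. Ebf1 was closest to Zfp366 (0.963), Vwf, a protein of vessel lining cells, and Slc25a24, and Ebf2 to Cdh1 (0.978), Abcc9, a marker of mural cells, and Tbx3os1. Trp73 had r = 0.911 with Lhx5, 0.793 with Ebf3 and 0.125 with Ebf1. The points share libraries and depth, and a single cluster, CR or VLMC, sets most of each correlation.

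Relatives and binding partners of the 6 were taken as a list of 21 genes. In the sum without CR, 19 were tested, and 8 were called higher in DBA and 2 lower. Of all genes in this sum 47.0% were called in either direction, a share that includes 4247 genes with counts in only 1 strain. Among genes with counts in both strains, 18.0% were called higher in DBA. The median log2 fold change of the 19 was 0.22, beside 0.09 over all genes. Trp63, another p53 family gene, was higher in DBA by 0.58 (standard error 0.20, adjusted p = 0.0281, edgeR), while Trp53 (0.22) and Mdm2 (0.05), which encodes a ubiquitin ligase of p53, were not called. Ebf4 (0.22) and Zfp521 (0.47), a zinc finger partner of EBF proteins, were higher. Among LIM-homeodomain genes Lhx9 (0.47) was the 1 of 4 called. Of 9 LIM cofactors, Lmo2 (0.49), Lmo3 (0.25), Lmo4 (0.56) and Ssbp4 (0.66) were higher and Ldb2 (-0.22) and Ssbp2 (-0.22) lower. All of these values were smaller than the 2.60 of Trp73. In CR, 11 of the 21 were tested, and 1, Ssbp2, was called, beside 4.26% of all genes tested there, lower in DBA (-1.19, standard error 0.27, adjusted p = 0.0136, edgeR). Of the 8 other CR genes, 7 were tested in CR and 1, Ndnf, a secreted protein of CR neurons, was called, lower by 1.27 on the log2 scale (adjusted p = 0.0419).

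Chromatin at Trp73 did not differ detectably between the strains. The snATAC-seq table has 15 cell types, without CR and VLMC, and counts of all types were summed per library. Its libraries held between 90684494 and 122322471 counts. At the 6 genes, from 2 kb before the start to the end, 90 peaks were found, 13 of them at Trp73, and none of the 13 was called, with log2 fold changes from -0.31 to 0.18. The 13 together were at 67.4 and 64.0 CPM in B6 and 62.2 and 61.3 CPM in DBA. Sums of the 13 include a peak over the start of Wrap73, chr4:154141888-154142887. That peak was at 12.8 and 13.7 CPM in B6 and 13.4 and 12.7 CPM in DBA. The peak over the outer promoter, chr4:154139616-154140489, was at 2.69 and 2.96 CPM in B6 and 2.44 and 3.06 in DBA (log2 fold change -0.000567, standard error 0.12, adjusted p = 0.999, edgeR). In Exc-DG, where the transcript differed 12.8-fold, the 13 peaks summed to 77.9 and 72.8 CPM in B6 and 71.2 and 71.7 CPM in DBA. A peak 302 bases from a start annotated within the gene, chr4:154085624-154086816, reached 12.6 CPM in B6 and 13.5 CPM in DBA in Exc-CA1-Galntl6 and had no count in Astro in either strain.

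**Figure D5:**
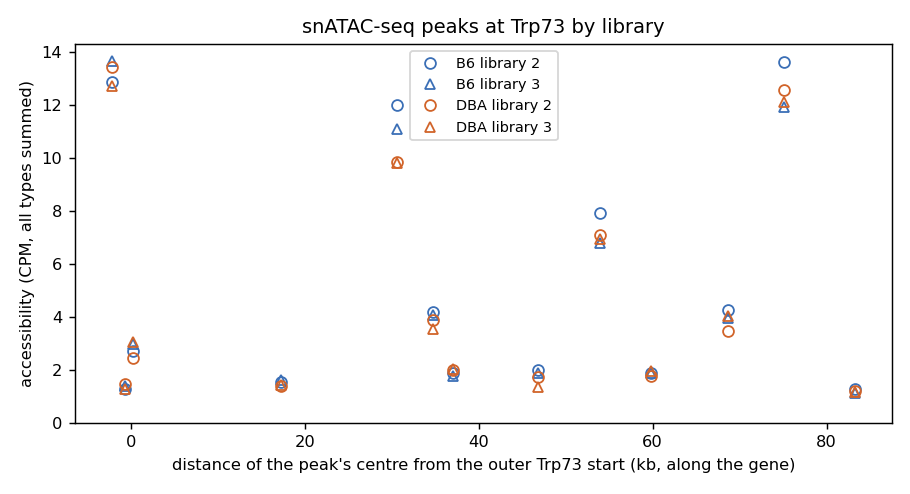
Accessibility of the 13 snATAC-seq peaks at Trp73 in CPM (all cell types summed) against the distance of each peak from the outer start along the gene, in kb, by library (blue for B6, orange for DBA, circles for library 2 and triangles for library 3). The 4 libraries nearly coincide at each peak, and the widest gap, near 31 kb, runs from 12.01 and 11.1 CPM in B6 to 9.85 and 9.79 CPM in DBA (adjusted p = 0.0684).

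Of the 90 peaks 3 were called, all lower in DBA, and 11.0% of the 300819 peaks in the table were called in either direction. The strongest lies in Ebf1 at chr11:44681919-44682308, with 1.28 and 1.26 CPM in B6 and 0.468 and 0.556 CPM in DBA (log2 fold change -1.26, standard error 0.19, adjusted p = 1.98e-07, edgeR). A second in Ebf1, chr11:44666719-44667081, changed by -0.64 (adjusted p = 0.0349), and a peak in Ebf2, chr14:67337381-67337756, by -0.85 (adjusted p = 0.00107). They lie 60158, 44958 and 102737 bases from the nearest annotated start of their gene, in that order. Of the 15 peaks within 1 kb of a start, including the single peak at Lhx1 and 1 of 2 at Lhx5, none was called. With DESeq2 1 of the 90 peaks was called, and without B6 library 2 5 were.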

How the data were processed

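The authors deposited integer counts (counts of molecules for snRNA-seq, counts in peaks for snATAC-seq) summed over the nuclei of each cell type and library. Per the labels and methods, they used Cell Ranger 6.0.2 with introns retained, Seurat 4.0.5 with removal of doublets, and Cell Ranger ATAC 2.0.0, aligned B6 to mm10 and DBA to mm10 with DBA variants put in, and named cell types from marker genes. Aligning the strains to different references can change the counts of a gene in 1 strain. Over 13116 genes in the sum without CR, log2 CPM correlated at r = 0.998 between the B6 libraries and 0.996 between the DBA libraries. Between strains r was 0.621 to 0.623, and the part of the reference in this was not tested. Libraries held between 43048686 and 56452272 RNA counts. The tables number the libraries of a strain 2 and 3 and the labels 1 and 2, so only the strain of each column is certain. The 16 methylation samples of the 24 were not used.

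Counts were tested with edgeR 4.0.16 (R 4.3.3): TMM scaling, the filterByExpr filter, the quasi-likelihood test, and Benjamini-Hochberg adjustment over all genes or peaks, called at adjusted p under 0.05. Each cell type, CR and the sum of the other types were fitted with strain as the only term. The difference between CR and the other types was fitted with library as a block. Peaks with under 10 counts were left out. Fold changes are DBA minus B6. The smallest p of an exact permutation test on 2 against 2 libraries is 0.33, and the edgeR p-values rest on a spread shared across genes. On simulated data with 4-fold changes in 200 genes, edgeR found 100% in the sum without CR (25695 genes, 4.31% of calls false) and 92% in CR (6661 genes, 3.16% false). The changes were planted only in genes with many counts, and all genes had the same spread. No single type outside CR was simulated, so these shares do not cover genes with few counts or the calls by type. Alternatives were DESeq2 1.42.0, RLE scaling, genes with at least 1 count, a replicate block, other sums of cell types and each library left out. Named besides the 6 genes were the 3 genes closest in pattern to each, and the called genes of the lists of CR genes and of relatives and partners. The 6 genes and the lists were chosen with earlier results of these data known.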

Additional observations from a re-analysis of the deposited data

Results flagged for a closer look

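The difference between the strain differences of Trp73 in CR and in the sum of the other cell types was itself past the threshold. The strain difference of Trp73 (DBA minus B6, log2) was lower in CR than outside it by a value of -4.20 (standard error 0.34, adjusted p = 2.87e-30, edgeR), with both DBA libraries below both B6 libraries in CR and above them outside it. The p-value rests on a spread shared by CR and the other types, while the DBA libraries in CR lay far apart.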

How the results depend on the processing

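Trp73 outside CR stayed higher in DBA and past the threshold under all alternatives run (log2 fold change 1.71 to 2.80). With libraries left out in turn this value ran from 2.52 to 2.67. The difference for Trp73 between CR and the other types stayed between -5.44 and -3.42. For that difference the alternatives were RLE scaling, no filter on low counts and libraries left out. DESeq2 and the replicate block were not run for it. Trp73 in CR lost its call without the filter on low counts (-1.60), with DESeq2 (-1.50) and with the replicate block (-1.55, adjusted p = 0.144, edgeR), and ran from -2.71 to -0.77 with libraries left out. The 11 calls by gene and cell type became 5 with DESeq2 and 6 to 12 with libraries left out, and the 7 types with Trp73 higher outside CR became 4 with DESeq2 and 4 to 8 with libraries left out. Without CR, 3 genes were called, 1 in neuronal types alone, and 2 to 3 with libraries left out. The 3 peaks became 1 with DESeq2, 0 within 1 kb of a start, and 2 to 5 with libraries left out. Values that turned their sign were Ebf1 outside CR in neuronal types (0.0227), the difference for Ebf3 between CR and other types without DBA library 2 (-0.46, range with libraries left out -0.46 to 1.05), Lhx1 in CR without B6 library 2 (0.0076) and without DBA library 3 (0.62, range -1.19 to 0.62), Ebf2 in VLMC without DBA library 2 (-0.21, range -0.21 to 1.09), and Lhx5 outside CR with cell types weighted equally (0.0075). The cause was not tested.

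Same-numbered libraries did not deviate together (correlation 0.00956 outside CR, -0.0342 in CR, -0.0299 in accessibility), so the replicate block pairs libraries that share only a number; under it 10 calls by gene and cell type were made in place of 11. Low counts limit most cell types: 17 of 102 combinations passed the filter, and the DBA CR cluster rests on 139713 and 162378 counts.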
